A study of Mus musculus with 4 samples.

Results

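The vascular endothelial growth factor (VEGF) ligands, their receptors and the neuropilins were followed here through dissociated mouse liver, gene by gene and cell class by cell class. The 8 genes were taken by symbol from the 31053 features of the deposited matrices, and each symbol matched 1 feature: the ligands Vegfa, Vegfb and Vegfc, the receptors Kdr, Flt1 and Flt4, and the co-receptors Nrp1 and Nrp2.

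Single-cell RNA libraries had been made from liver tissue of mice in 2 genotype labels and 2 stages, with 1 library for each combination. The labels give the tissue as premalignant liver or as eHCC, named in the protocol as early HCC (hepatocellular carcinoma), and the genotype as KO or WT of Mef2d, a transcription factor of the MEF2 family. The sources used here do not give the strain, sex or age of the mice, how the tumours were induced, which part of Mef2d was deleted and in which cells, or how many animals went into a library. The submitters' design text names a comparison of Mef2d KO with Mef2d WT. Where 4 values stand in a row, the premalignant libraries come first and KO comes before WT within each stage.

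With 1 library per group no difference between labels or stages could be tested against the spread between animals. A level is the number of molecules counted by their unique molecular identifier (UMI) for a gene in all cells of a class, scaled to counts per 1e6 UMIs of that class (CPM). Levels carry exact 95% Poisson intervals, ratios exact 95% binomial intervals and shares of cells exact Clopper-Pearson 95% intervals. All of these cover counting error only, and they would be as narrow if another mouse gave another value. Mef2d RNA was counted at 100.6, 72.16, 96.36 and 61.34 CPM, higher in both libraries labelled KO. Which end of the transcript was counted is not settled and the deleted part is not known, so this value checks no label, and KO below means the library labelled KO.

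VEGF-A binds the receptor tyrosine kinases encoded by Kdr (VEGFR2) and Flt1 (VEGFR1) and drives endothelial growth, survival and permeability, whereas Flt1 binds VEGF-A tightly with weak signalling and can act as a decoy. VEGF-C signals through Flt4 (VEGFR3), the receptor best known from lymphatic vessels and also carried by sinusoidal endothelium, and VEGF-B binds Flt1. Neuropilins bind VEGFs and class 3 semaphorins and assist the kinase receptors or the plexins. In liver, sinusoidal endothelial cells (LSEC) are the fenestrated lining of the sinusoids, and hepatocytes and bile duct cells are known sources of VEGF-A.

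The promoter sequences of the main ligand and of its receptors are shown because the ligand and the receptors were counted in different cell classes. They are the bases before the annotated start, from the RefSeq promoter table for GRCm38.p6, each written 5′ to 3′ on the strand of its gene. Capitals mark GGGCGG, the core of SP1 sites, for Vegfa, and GGAA or its reverse complement, the core of ETS factor sites, for Kdr and Flt1.

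Vegfa promoter, chr17:46032378-46032627, minus strand: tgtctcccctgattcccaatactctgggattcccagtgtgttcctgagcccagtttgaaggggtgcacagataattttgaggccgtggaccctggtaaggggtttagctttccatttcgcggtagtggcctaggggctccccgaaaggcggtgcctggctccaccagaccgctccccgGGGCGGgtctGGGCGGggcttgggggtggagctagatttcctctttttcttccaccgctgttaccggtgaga

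Kdr promoter, chr5:75978459-75978705, minus strand: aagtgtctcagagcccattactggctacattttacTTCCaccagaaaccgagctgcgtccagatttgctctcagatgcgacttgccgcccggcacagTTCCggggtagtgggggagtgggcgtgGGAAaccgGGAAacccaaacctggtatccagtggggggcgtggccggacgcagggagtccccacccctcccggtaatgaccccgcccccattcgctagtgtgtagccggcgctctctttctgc

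Flt1 promoter, chr5:147726012-147726261, minus strand: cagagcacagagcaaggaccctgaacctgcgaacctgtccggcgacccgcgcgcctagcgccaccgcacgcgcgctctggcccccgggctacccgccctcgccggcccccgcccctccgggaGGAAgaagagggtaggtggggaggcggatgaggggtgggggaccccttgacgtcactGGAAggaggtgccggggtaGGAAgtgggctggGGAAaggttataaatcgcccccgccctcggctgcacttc

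Over the windows of 250 bases GGGCGG was found 2 times in that of Vegfa, 2 times in that of Kdr and 3 times in that of Flt1, and 32.7% of 32851 RefSeq windows held it on either strand. GGAA was found 6 times for Vegfa, which 8.69% of windows reach, and 4 times for Kdr and for Flt1, which 33.4% reach. Ligand and receptors were thus not set apart by either motif, and the capitals mark only 1 motif in each stretch. The core ACGTG or GCGTG of hypoxia response elements had 0 matches in the Vegfa stretch, 2 in that of Kdr and 1 in that of Flt1, and 38.6% of all windows held it. The MEF2 motif had 0 matches in the windows of all 8 genes, and 0.508% of all windows held it. These are matches of letters in the window shown and not sites of binding. On GRCm38 the gene Vegfa spans chr17:46016993-46032369, Kdr chr5:75932827-75978458 and Flt1 chr5:147561604-147726011, all on the minus strand. Vegfb lies at chr19:6982473-6987651 on the minus strand, Vegfc at chr8:54077606-54187096, Flt4 at chr11:49609263-49652739, Nrp1 at chr8:128358604-128503363 and Nrp2 at chr1:62703285-62818695 on the plus strand. The annotation places the antisense gene Gm29083 and the same-strand gene Gm37121 over Nrp2 and the miRNA gene Mir1903 over Nrp1, and the sources used here do not give how reads shared with them were counted.

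After filters and doublet removal 8796, 12229, 8382 and 9487 cells were kept, with medians of 4305, 4641, 7268 and 8316 UMIs per cell. Cells were clustered again from the matrices and named from marker lists, so the classes are rebuilt and are written with "-like". The 8 genes and the genes of the pathway lists were left out of the variable genes used for clustering, and 34986 of 38894 cells lay in 22 named classes. The composition differed between stages. LSEC-like cells numbered 2488, 4958, 16 and 28, vascular endothelial-like cells 13, 46, 55 and 155, macrophage-like cells 16, 7, 157 and 2170 and T-like cells 2134, 1849, 4921 and 3784. All 10 LSEC markers were detected in LSEC-like cells of the premalignant libraries, where they summed to 18850 and 18800 CPM. Pairs of libraries shared 27 to 46 barcodes, at most 0.476% of the smaller library. Levels are compared between libraries only for classes of at least 50 cells in both, and smaller classes are described with their cell numbers.

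**Figure D1:**
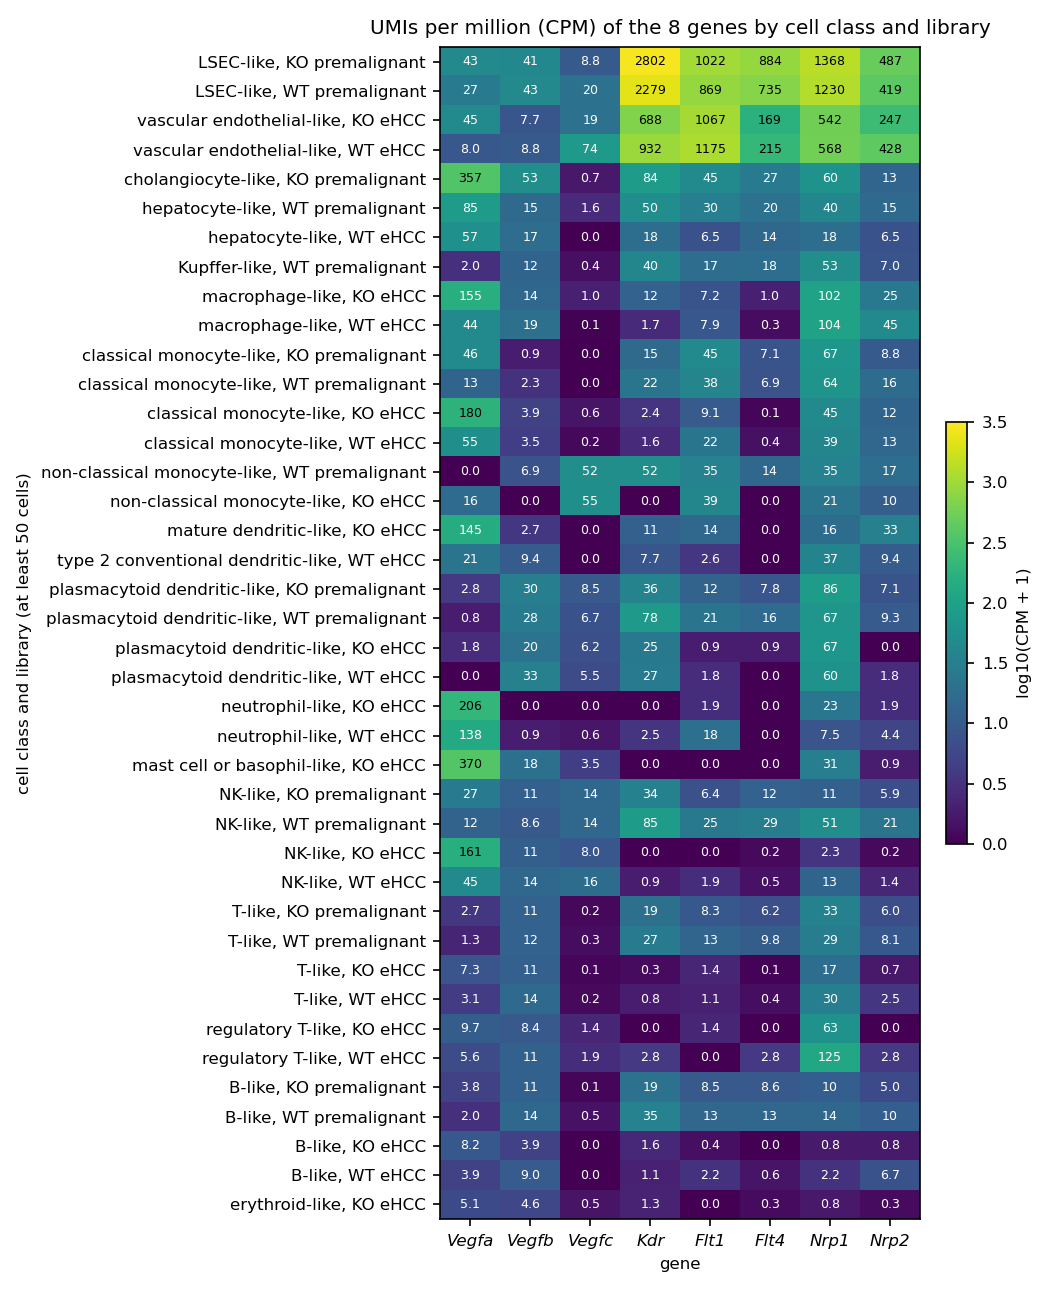
Level of the 8 genes (columns) in every cell class and library with at least 50 cells (rows). Numbers are CPM and colour is log10(CPM + 1). The receptors and Nrp2 are brightest in the 4 endothelial rows at the top, whereas Vegfa is brightest in mast cell or basophil-like (370 CPM) and cholangiocyte-like cells (357 CPM).

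The 3 receptors and both neuropilins had their highest levels in endothelial classes, and Vegfa had its highest levels outside them. In the premalignant libraries LSEC-like cells, 28.3% and 40.5% of kept cells, held 92.1% and 90.4% of all Kdr UMIs, 89.9% and 89.8% of Flt1 UMIs and 90.4% and 90.7% of Flt4 UMIs. They held 90.1% and 90.1% of Nrp1 UMIs and 89.2% and 89.7% of Nrp2 UMIs. In the eHCC libraries vascular endothelial-like cells, 0.656% and 1.63% of cells, held 55.4% and 66.6% of Kdr UMIs and 65.2% and 67.7% of Flt1 UMIs. Over all kept cells Kdr was at 980.1, 1290, 12.71 and 34.29 CPM, which follows how many endothelial cells each library held. The classes were built from the same cells, so differences between classes are descriptions.

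Kdr encodes the main signalling receptor for VEGF-A. Its level was 2801.5 CPM (95% interval 2775 to 2828) in LSEC-like cells of KO premalignant liver, against 2279.3 CPM (2264.3 to 2294.3) in those of WT premalignant liver. Vascular endothelial-like cells followed with 687.5 CPM (630.6 to 748.1) in KO eHCC and 932.2 CPM (894.8 to 970.9) in WT eHCC. These 4 levels did not overlap in their intervals. The same order of classes was seen inside one library: in WT premalignant, Kdr was at 2279.3 CPM in LSEC-like and at 619.2 CPM (553.4 to 690.7) in 46 vascular endothelial-like cells. The few LSEC-like cells of the eHCC libraries had 1129.1 CPM (16 cells) and 1586.5 CPM (28 cells).

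Flt1 encodes the tight-binding receptor that can act as a decoy, and its level differed less between the endothelial classes. In WT premalignant it was at 869.2 CPM (860 to 878.6) in LSEC-like cells and at 898 CPM (818.4 to 983.3) in vascular endothelial-like cells, with overlapping intervals. In the other libraries it was at 1022.4 CPM in LSEC-like cells of KO premalignant, and at 1067 and 1175 CPM in vascular endothelial-like cells of KO and WT eHCC. Whether these counts come from the full-length receptor or from the soluble form could not be told apart.

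Flt4 encodes the VEGF-C receptor. It was at 884.5 CPM (869.7 to 899.5) and 735.1 CPM (726.6 to 743.6) in LSEC-like cells of KO and WT premalignant, and at 168.7 and 215.3 CPM in vascular endothelial-like cells of KO and WT eHCC. In the 46 vascular endothelial-like cells of WT premalignant it was at 215.4 CPM (177.3 to 259.2). A group of 23 lymphatic endothelial-like cells in KO premalignant, too small for a comparison, had 1352 CPM of Flt4 (1192 to 1526), 776.7 CPM of Kdr (657.4 to 911.5) and 41.43 CPM of Flt1 (17.88 to 81.63). The lymphatic group thus stood above LSEC-like cells in Flt4 and below them in Kdr and Flt1.

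The neuropilins followed the receptors in endothelium and were also counted outside it. Nrp1, the VEGF-A and semaphorin co-receptor, was at 1367.9 and 1229.8 CPM in LSEC-like cells of KO and WT premalignant, and at 541.8 and 568.5 CPM in vascular endothelial-like cells of KO and WT eHCC, whose intervals overlapped. Nrp2, the co-receptor known for VEGF-C and lymphatic vessels, was at 487.1 and 418.9 CPM and at 246.6 and 428.1 CPM in the same 4 groups. In the 23 lymphatic endothelial-like cells Nrp2 was at 745.7 CPM (628.8 to 877.9) and Nrp1 at 62.14 CPM (32.11 to 108.5). This group thus held more Nrp2 and less Nrp1 than either of the other endothelial classes.

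Single LSEC-like cells carried several of the receptors. With each cell thinned to 1000 UMIs, Kdr was detected in 91.76% (90.61 to 92.81) of KO and 86.47% (85.49 to 87.42) of WT premalignant LSEC-like cells, and in 99.32% and 99.27% without thinning. Kdr and Flt1 were detected together in 56.5% and 51% of thinned cells, Kdr and Flt4 together in 53.6% and 46.2%, and none of the 3 in 1.78% and 3%. In thinned vascular endothelial-like cells of KO and WT eHCC, Kdr and Flt1 were found together in 18.9% and 33.3%. B-like cells, which should lack these receptors, had none of the 3 in 96.8%, 93.6%, 99.6% and 99.5% of thinned cells. Median depths were 5579 and 6942 UMIs in premalignant LSEC-like cells and 3795 and 3462 in premalignant B-like cells.

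Kdr was also counted at low levels in lymphoid cells of the premalignant libraries. Kdr in B-like cells was at 19.23, 35.13, 1.563 and 1.122 CPM, and in T-like cells at 18.73, 26.51, 0.265 and 0.8448 CPM. Both classes thus had more Kdr in the libraries rich in LSEC-like cells. In NK-like cells all 5 receptor and neuropilin genes were lower in KO than in WT premalignant, with log2 ratios from -2.25 for Nrp1 to -1.32 for Flt4. Of genes with at least 50 UMIs, 1.42% were at least 2-fold lower, and 3 of these 5 genes reached that filter. The 10 LSEC markers, all detected, moved with them at 230.5 and 828.8 CPM in the same cells, and Kdr was at 33.62 and 85.12 CPM. The stage ratios of the receptors in lymphoid classes move with the same markers, and the part of free LSEC RNA in them was not tested.

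**Figure D2:**
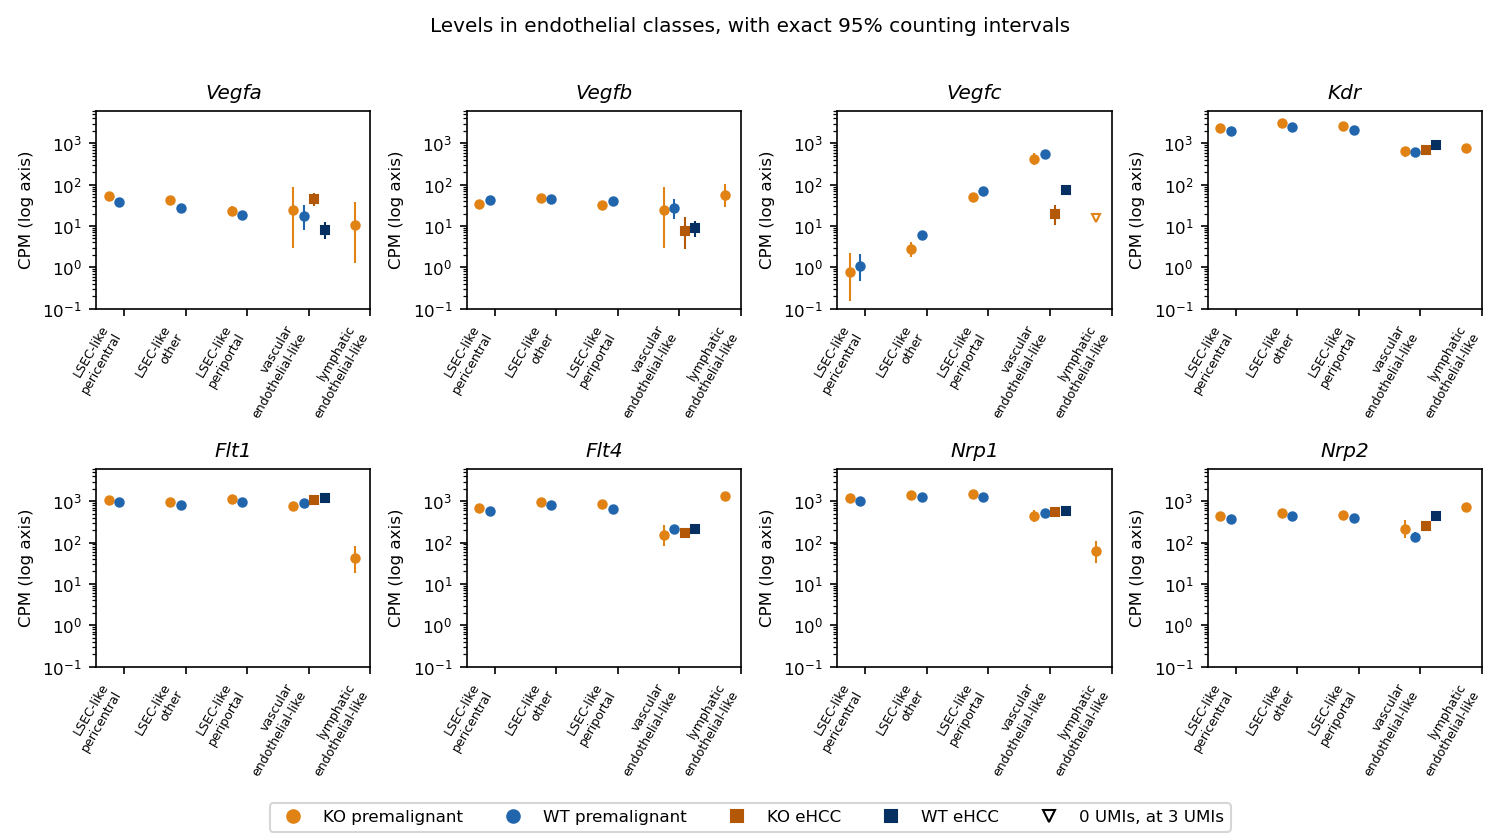
Level of each gene (CPM, log axis) in 3 zones of LSEC-like cells of the premalignant libraries, in vascular endothelial-like cells of all 4 libraries and in 23 lymphatic endothelial-like cells of KO premalignant. Points are levels, bars exact 95% counting intervals and the open triangle a count of 0 drawn at 3 UMIs; Vegfc climbs from pericentral to periportal LSEC-like cells, whereas Flt1 stays between 820.6 and 1105 CPM in all zones.

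Vegfc, the ligand of Flt4, differed between zones of the sinusoid, which were assigned to LSEC-like clusters from pericentral and periportal marker lists. In KO and WT premalignant it was at 0.7578 and 1.081 CPM in pericentral, 2.718 and 6.065 CPM in other and 50.04 and 70.73 CPM in periportal LSEC-like cells. Its level was higher still in vascular endothelial-like cells, at 422 CPM in 13 cells and 548.1 CPM (486.3 to 615.5) in 46 cells of the premalignant libraries. The periportal marker list shares Ltbp4 and Clu with the vascular endothelial list. The part of vascular RNA in the periportal Vegfc level was not tested. The premalignant vascular cells were mostly 1 cluster with Gja5, a gap junction gene of arteries, and haemoglobin genes among its leading genes, and those of eHCC mostly another, led by Igfbp3, so different clusters hold the class at the 2 stages. Vegfc was at 19.17 and 74.42 CPM in the vascular endothelial-like cells of KO and WT eHCC.

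Vegfa had the opposite zonation. It was at 54.31 and 38.23 CPM in pericentral, 42.18 and 27.09 CPM in other and 23.6 and 18.94 CPM in periportal LSEC-like cells of KO and WT premalignant, and the pericentral and periportal intervals did not overlap in either library. Kdr and Flt4 had their highest levels in the LSEC-like cells of neither end, with Kdr at 3064 and 2478 CPM there. Flt1 varied least among the receptors, between 820.6 and 937.3 CPM over the zones of WT premalignant.

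Between the labels, LSEC-like cells of the premalignant stage had higher receptor levels in KO than in WT, by log2 ratios of 0.30 (0.28 to 0.31) for Kdr, 0.23 (0.21 to 0.26) for Flt1 and 0.27 (0.24 to 0.30) for Flt4. Nrp1 and Nrp2 were higher by 0.15 (0.13 to 0.18) and 0.22 (0.18 to 0.26). Vegfa was higher by 0.64 (0.50 to 0.79), with 653 and 1064 UMIs or 42.75 and 27.34 CPM. Vegfb did not differ beyond counting error, at 41.37 and 43.12 CPM. Vegfc was lower in KO, by -1.18 (-1.46 to -0.92), with 134 and 776 UMIs or 8.772 and 19.94 CPM. Of the 8 genes 0 were at least 2-fold higher and 1, Vegfc, at least 2-fold lower in KO, where 1.31% of 12013 measured genes were at least 2-fold higher and 0.974% at least 2-fold lower. The median log2 ratio was 0.23 over the 8 genes and 0.04 over all measured genes.

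The receptor differences were present in each zone, with Kdr at 2305 and 1937 CPM in pericentral and 2588 and 2060 CPM in periportal cells of KO and WT. The Vegfc difference was smaller within the periportal zone, which held most of its UMIs: 50.04 CPM from 106 UMIs in KO and 70.73 CPM from 631 UMIs in WT, a log2 ratio of -0.50 (-0.81 to -0.20). Periportal cells made up 435 of 2488 LSEC-like cells in KO and 1190 of 4958 in WT, so a difference in zone mix moves with the difference over the whole class.

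The other genes of the pathway in LSEC-like cells were read from lists. Of 23 measured VEGF receptor signalling genes, 1 was at least 2-fold higher and 0 lower in KO, with a median of 0.15. That gene was Sh2d2a, an adaptor known from T cells and from Kdr signalling, at 2.095 and 0.9252 CPM. All 9 T cell markers were detected in these LSEC-like cells and moved the same way, at 51.26 and 29.61 CPM, and their part in the Sh2d2a ratio was not tested. Of 14 tip cell genes, which mark sprouting endothelium, 0 were at least 2-fold higher and 1 lower. The lower one was Esm1, a VEGF-induced proteoglycan, at 29.85 and 61.11 CPM (-1.03, interval -1.18 to -0.89). Of 11 measured genes that VEGF induces in endothelium, 0 passed 2-fold in either direction, with a median of 0.08, and the feedback inhibitors Spry2 and Spry4 were higher by 0.40 and 0.36.

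Of the neuropilins' other ligands and partners, the semaphorins come first. Of 7 class 3 semaphorins 2 had enough UMIs: Sema3d was at 54.73 and 21.51 CPM in KO and WT, a log2 ratio of 1.35 (1.21 to 1.49), and Sema3f at 241.7 and 192.5 CPM. Sema3d was thus the 1 semaphorin past 2-fold. All 4 measured plexins, the signalling partners of neuropilins, had ratios above 0, with a median of 0.21. In the angiopoietin and Tie list 3 of 4 genes were above 0 and 0 passed 2-fold, among them Tie1 at 347.8 and 276.7 CPM. The 4 measured genes for maturation of VEGF-C, such as the protease Furin at 57.22 and 56.59 CPM and the cofactor Ccbe1 at 10.74 and 8.044 CPM, held 0 past 2-fold.

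Of 8 measured Notch genes 0 passed 2-fold (median -0.13), and Notch1, a receptor that restrains sprouting, was at 508.9 and 420.2 CPM. Of 18 measured transcription factors of endothelial receptor genes 14 had ratios above 0 and 0 passed 2-fold (median 0.17), with Ets2 at 591.4 and 482.2 CPM and Mef2d itself at 90.28 and 70.49 CPM.

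In the vascular endothelial-like cells of eHCC the receptor ratios had the other sign, a difference from LSEC-like cells that was not tested. Kdr, at 687.5 and 932.2 CPM, was lower in KO by -0.44 (-0.58 to -0.30), Flt4 by -0.35 (-0.64 to -0.07) and Nrp2 by -0.80 (-1.02 to -0.57). Flt1 was lower by -0.14 (-0.25 to -0.03), and Nrp1 did not differ beyond counting error. The 11 vascular endothelial markers of the class, all detected, were lower in KO too, at 3713 and 4869 CPM. The 10 LSEC markers, all detected as well, were at 1146 and 1356 CPM. How far the receptor ratios follow these markers was not tested. Vegfc was lower by -1.96 (-2.82 to -1.20), from 15 and 186 UMIs. Vegfa was higher by 2.48 (1.65 to 3.35), from 35 and 20 UMIs, and 1 cell held 42.86% of the KO UMIs. Of 7 measured members 1 was at least 2-fold higher and 1 at least 2-fold lower, where 3.7% and 5.39% of 7166 genes were. The erythroid markers moved with the label in this class, with 5 of 6 detected in KO and 4 of 6 in WT and sums of 1379 and 122.8 CPM, and their part in the result was not tested.

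**Figure D3:**
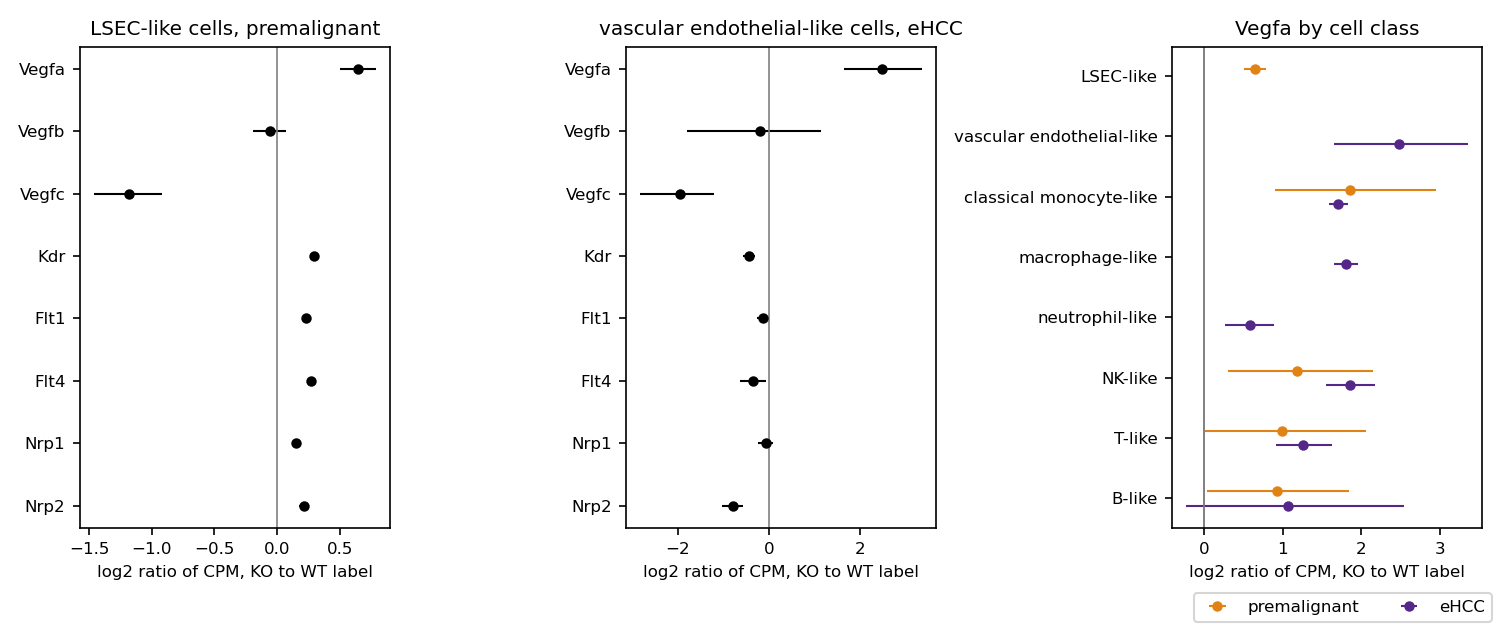
Log2 ratio of CPM, KO to WT label, with exact 95% counting intervals as bars. The 8 genes are shown in LSEC-like cells of the premalignant stage (left) and vascular endothelial-like cells of eHCC (middle), and Vegfa alone in 8 classes at both stages (right), where every point lies above 0; the interval of B-like cells at eHCC crosses 0.

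Vegfa, the main ligand, had its highest levels in mast cell or basophil-like cells of KO eHCC and cholangiocyte-like cells of KO premalignant. Other myeloid classes and NK-like cells, all of KO eHCC, followed. Mast cell or basophil-like cells of KO eHCC (303 cells) had 370.1 CPM (335.6 to 407.1) and cholangiocyte-like cells of KO premalignant (53 cells) 357.4 CPM (326.2 to 390.9), and these did not differ beyond counting error. Cholangiocyte-like cells of WT premalignant, 36 cells, had 275.7 CPM. Below them came neutrophil-like cells of KO eHCC with 206.3 CPM (169.4 to 248.8), classical monocyte-like cells with 180.1 CPM (171.3 to 189.2), NK-like cells with 161.4 CPM (150.1 to 173.2) macrophage-like cells with 154.8 CPM (140.8 to 169.7) and mature dendritic-like cells with 144.6 CPM (108.3 to 189.2), all in KO eHCC. Each of these 5 classes overlapped with its neighbour in this order in its interval.

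Below these KO eHCC levels stood hepatocyte-like cells, at 84.68 CPM (69.19 to 102.6) in WT premalignant and 56.75 CPM (43.41 to 72.9) in WT eHCC. LSEC-like cells of KO and WT premalignant had 42.75 and 27.34 CPM. This order sets different libraries side by side and did not hold within the WT libraries. In WT premalignant, hepatocyte-like and LSEC-like cells stood above classical monocyte-like and NK-like cells. In WT eHCC the hepatocyte-like interval held the classical monocyte-like and NK-like levels. T-like cells had 2.662, 1.336, 7.348 and 3.062 CPM and plasmacytoid dendritic-like cells 2.825, 0.8422, 1.774 and 0 CPM. Kupffer-like cells of WT premalignant, the resident macrophages of the sinusoid, had 5 UMIs in 288 cells (1.953 CPM).

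The classes that held most Vegfa UMIs differed between the libraries. In KO premalignant LSEC-like cells held 41.6% and the 53 cholangiocyte-like cells 30.6% of 1568 UMIs, and in WT premalignant LSEC-like cells held 69.7% of 1527. In KO eHCC classical monocyte-like cells held 36.6%, NK-like cells 17.7% and macrophage-like cells 10.5% of 4332 UMIs. In WT eHCC macrophage-like cells held 49%, classical monocyte-like cells 26.2% and neutrophil-like cells 12.9% of 3444 UMIs. Over all kept cells Vegfa was at 33.07, 20.09, 56.72 and 33.77 CPM.

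In classical monocyte-like and NK-like cells Vegfa was higher in KO than in WT at both stages. In classical monocyte-like cells it was at 45.83, 12.63, 180.1 and 55.11 CPM, from 52, 11, 1585 and 904 UMIs. In NK-like cells it was at 27.21, 12.04, 161.4 and 44.63 CPM, from 51, 14, 767 and 96 UMIs. In both classes the KO library was above the WT library of the same stage and eHCC above premalignant of the same label.

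At the premalignant stage the log2 ratio of KO to WT was above 0 in 5 of 5 classes with enough UMIs: 1.86 (0.90 to 2.95) in classical monocyte-like, 1.18 (0.30 to 2.15) in NK-like, 0.64 in LSEC-like, 1.00 (0.01 to 2.06) in T-like and 0.93 (0.04 to 1.84) in B-like cells. Classical monocyte-like and NK-like cells were past 2-fold, where 1.5% and 2.23% of measured genes were at least 2-fold higher, 1.31% in LSEC-like, 1.24% in T-like and 1.78% in B-like cells. After thinning to 1000 UMIs per cell the T-like and B-like ratios were -0.18 and -0.24 and that of classical monocyte-like cells 0.31.

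At eHCC the ratio was above 0 in 7 of 7 classes, with 6 intervals above 0 and 6 classes past 2-fold. It was 1.71 (1.59 to 1.83) in classical monocyte-like, 1.80 (1.65 to 1.95) in macrophage-like, 1.85 (1.55 to 2.18) in NK-like, 1.26 (0.92 to 1.62) in T-like, 0.58 (0.26 to 0.89) in neutrophil-like and 1.06 (-0.23 to 2.54) in B-like cells, beside 2.48 in vascular endothelial-like cells. In these classes 5.05%, 7.18%, 4.55%, 3.2%, 3%, 1.82% and 3.7% of measured genes were at least 2-fold higher in KO. These shares are of genes with at least 50 UMIs, and Vegfa had fewer in B-like cells. In neutrophil-like cells the median of all genes was -0.66, and relative to it Vegfa was higher by 1.23. The ratios of different classes come from the same pair of libraries. Different clusters held some of these classes: B-like cells were mostly cluster 20 in KO (503 cells) and cluster 1 in WT (340 cells), the largest T-like cluster was T1 in KO (1266 cells, 11 in WT) and T0 in WT (1526 cells, 7 in KO), and the neutrophil-like cluster 28 held 1 KO and 396 WT cells.

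The share of NK-like cells with a Vegfa UMI was 3.88%, 1.32%, 12.6% and 2.99% after thinning, against 8.76%, 5.73%, 43% and 16.3% without it, at medians of 4373, 4623, 8644 and 5938 UMIs. In B-like cells, at medians of 3795, 3462, 4856 and 4571 UMIs, it was 0.13%, 0.153%, 0.591% and 0.273% after thinning. The NK-like share in KO eHCC thus stood above those of the other libraries and above B-like cells at equal depth.

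Erythroid markers moved with the label at eHCC here too. All 6 were detected in KO and 4 of 6 in WT, and they summed to 2587 and 179 CPM in NK-like, 5641 and 109.7 CPM in classical monocyte-like and, with 5 of 6 in WT, 7297 and 128.6 CPM in macrophage-like cells. Erythroid-like cells of KO eHCC had 5.066 CPM of Vegfa themselves. At the premalignant stage the sums in NK-like cells were 52.29 and 181.4 CPM, higher in WT. The part of these markers in the Vegfa ratios at eHCC was not tested.

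The myeloid classes of the eHCC libraries were made of different clusters. Classical monocyte-like cells of KO were mostly the clusters P3 and P5 and those of WT mostly P1 and P8, and most macrophage-like cells of WT lay in P0, P2 and P4, which held 3 cells of KO or fewer. The comparison was therefore repeated in the clusters both libraries shared. In P5, led by Ly6i, Acod1 and Hilpda, Vegfa was at 295 CPM in 243 KO cells and 68.88 CPM in 72 WT cells, a log2 ratio of 2.10. In P6, led by Ccl8 and Mmp12, it was at 174.2 CPM in 96 KO cells and 6.139 CPM in 152 WT cells, a log2 ratio of 4.83. These clusters were chosen after seeing the data. Among the WT macrophage clusters Vegfa ranged from 1.542 CPM in P2, led by Fcrls and Tmem119, to 123.5 CPM in P4, led by F7, Arg1 and Spp1.

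Between stages, Vegfa was higher at eHCC in NK-like cells by log2 ratios of 2.57 (2.16 to 3.01) in KO and 1.89 (1.07 to 2.82) in WT, and in classical monocyte-like cells by 1.97 (1.58 to 2.40) and 2.13 (1.28 to 3.13). Of measured genes 3.31% and 2.01% were at least 2-fold higher in NK-like and 5.23% and 8.74% in classical monocyte-like cells. After thinning the WT ratios were 0.27 in classical monocyte-like and 1.18 in NK-like cells. Classical monocyte-like cells of the premalignant libraries were mostly cluster P9 (95 and 78 cells), which held 6 and 30 cells at eHCC, so different clusters hold the class at the 2 stages. In hepatocyte-like cells of WT it was lower at eHCC by -0.58 (-1.06 to -0.11), where 5.66% of genes were at least 2-fold higher and 7.37% at least 2-fold lower, and by -2.04 with every cell weighted equally and -2.59 after thinning. The median of all genes lay at -0.39 and -0.22 in the NK-like comparisons. The KO and WT stage ratios were not tested against each other.

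Vegfa is a known target of hypoxia-inducible factors (HIF), and 29 other hypoxia response genes were read beside it. At eHCC 9 of 23 measured genes were at least 2-fold higher in KO than in WT in NK-like cells and 1 lower, with a median of 0.89 against -0.07 over all genes. In classical monocyte-like cells 9 of 26 were higher and 0 lower (0.78 against -0.07), and in macrophage-like cells 9 of 26 and 0 (0.82 against -0.05). In regulatory T-like cells, where 3.06% of all genes were at least 2-fold higher, 10 of 17 were higher and 1 lower (median 1.08). At least 2-fold higher were 4.55% of all genes in NK-like, 5.05% in classical monocyte-like and 7.18% in macrophage-like cells. At least 2-fold lower were 5.07% of all genes in NK-like, 6.79% in classical monocyte-like, 9.81% in macrophage-like and 3.44% in regulatory T-like cells.

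Among these genes Hilpda, which coats lipid droplets, was at 199.6 and 17.74 CPM in classical monocyte-like cells, and Ndrg1, a stress response gene, at 41.59 and 6.151 CPM in macrophage-like cells. Ldha, the lactate dehydrogenase of glycolysis, was at 455.9 and 174.3 CPM in NK-like cells. Slc2a1, the glucose transporter GLUT1, was at 107.2 and 33.34 CPM in regulatory T-like cells. In T-like cells the list held 3 of 26 genes at least 2-fold higher and 1 lower (median 0.51), against 3.2% and 8.03% of all genes. In B-like cells 0 of 19 passed in either direction (median 0.01), against 1.82% and 3.69%.

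At the premalignant stage 0 of the hypoxia response genes were at least 2-fold higher in KO in LSEC-like (27 measured, median -0.10), NK-like (17, -0.04), T-like (24, 0.01), B-like (25, -0.14) or plasmacytoid dendritic-like cells (13, -0.12). Vegfa had ratios above 0 in the first 4 of these classes, but after thinning those of T-like and B-like cells were -0.18 and -0.24. Between stages 7 of 23 list genes were at least 2-fold higher at eHCC in NK-like cells of KO and 1 of 18 in those of WT. Of all genes 3.31% were at least 2-fold higher in KO and 2.01% in WT. The KO and WT counts, from different numbers of measured genes, were not tested against each other. Of the HIF regulators, Hif1a, the oxygen-regulated subunit itself, was at 70.47 and 38.59 CPM in NK-like and at 396.7 and 176.9 CPM in regulatory T-like cells of KO and WT eHCC. Of the 10 genes of that list 0 of 7 measured passed 2-fold in NK-like cells and 1 of 6, Hif1a, in regulatory T-like cells, and in premalignant LSEC-like cells 0 of 9 did (median 0.09).

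**Figure D4:**
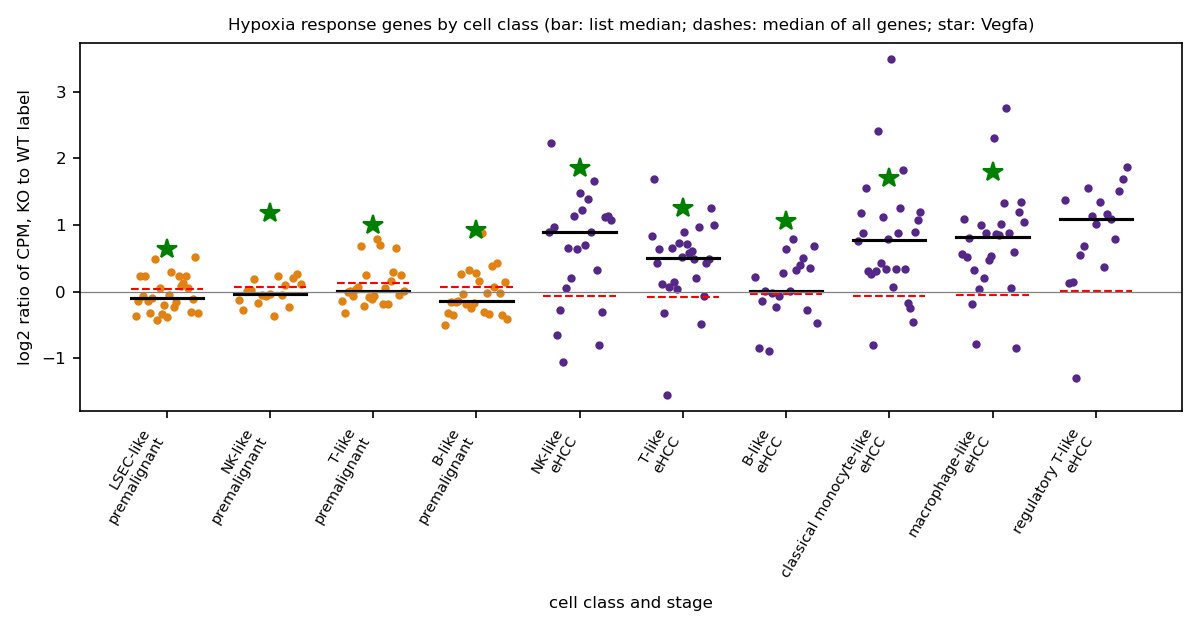
Log2 ratio of CPM, KO to WT label, of each hypoxia response gene with at least 50 UMIs (points) by cell class and stage. The solid bar is the list's median, the dashed line the median of all genes and the star Vegfa, shown where it had at least 20 UMIs; list medians lie between -0.14 and 0.01 at the premalignant stage and between 0.01 and 1.08 at eHCC.

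Vegfb, the Flt1 ligand known from oxidative tissues, was spread over many classes at low levels. It was at 41.37 and 43.12 CPM in premalignant LSEC-like cells, 52.87 CPM in cholangiocyte-like cells of KO premalignant and 30.37, 27.79, 20.4 and 32.77 CPM in plasmacytoid dendritic-like cells. Cholangiocyte-like and LSEC-like cells overlapped in their intervals, and plasmacytoid dendritic-like cells of KO eHCC (12.93 to 30.6) lay below both. In T-like cells it was at 11.47, 11.61, 10.82 and 14.5 CPM and in macrophage-like cells of eHCC at 14.32 and 18.66 CPM. At eHCC T-like cells had less in KO by -0.42 (-0.62 to -0.23), and of 7 classes 1 had an interval away from 0.

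Vegfc outside endothelium was counted in few cells. NK-like cells had 14.41, 13.76, 7.994 and 16.27 CPM from 27, 16, 38 and 35 UMIs, lower in KO at eHCC by -1.02 (-1.73 to -0.32). Non-classical monocyte-like cells, which patrol the vessel wall, had 52.12 CPM from 15 UMIs in WT premalignant and 54.83 CPM from 21 UMIs in KO eHCC. Macrophage-like and classical monocyte-like cells held at most 1.02 CPM at eHCC, from 5 UMIs or fewer.

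Of 2 other VEGF family ligands in the files 0 reached 50 UMIs in premalignant LSEC-like cells. Pgf, which binds Flt1, was at 13.29 and 0.552 CPM in macrophage-like cells of KO and WT eHCC, from 39 and 21 UMIs. That is a log2 ratio of 4.59 (3.79 to 5.43), where 7.18% of genes were at least 2-fold higher. Most macrophage-like cells of WT lay in clusters with few KO cells, and the part of this in the Pgf ratio was not tested.

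Among myeloid and lymphoid receptors, Flt1 was counted in monocyte-like cells, where it is known to mediate migration. Classical monocyte-like cells had 44.95, 37.88, 9.089 and 22.01 CPM, and at eHCC KO was lower by -1.28 (-1.64 to -0.92), where 6.79% of genes were at least 2-fold lower, and by -2.10 with called doublets kept. LSEC markers moved the same way in these cells, 9 of 10 detected in KO (Lyve1 at 0) and 8 of 10 in WT (Oit3 and Lyve1 at 0), with sums of 364.6 and 594.8 CPM, and their part was not tested. Non-classical monocyte-like cells had 34.74 CPM in WT premalignant and 39.16 CPM in KO eHCC, with overlapping intervals. B-like cells of the same libraries had 8.5, 13.26, 0.3908 and 2.245 CPM. The Flt1 level of monocyte-like cells thus stood above that of B-like cells in each library.

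Kdr was at 11.59 CPM in 157 macrophage-like cells of KO eHCC and at 1.656 CPM in 2170 of WT, from 34 and 63 UMIs (2.81, interval 2.16 to 3.43). B-like cells of these libraries had 1.563 and 1.122 CPM. The macrophage-like cells differed in other markers too. Macrophage markers summed to 32600 and 75710 CPM, Kupffer markers to 891.1 and 214.1 CPM and LSEC markers to 633.4 and 889.2 CPM. Their part in the Kdr ratio was not tested, and this ratio was not repeated under the alternatives of processing. In plasmacytoid dendritic-like cells Kdr was at 36.02, 78.32, 24.83 and 27.31 CPM, with 21.57% and 20.45% of cells of WT and KO eHCC holding a UMI at medians of 10937 and 12939 UMIs. B-like cells of these libraries had 0.542% and 0.781%, at medians of 4571 and 4856 UMIs. After thinning the plasmacytoid shares were 0% (0 to 6.98) in WT and 3.45% (0.717 to 9.75) in KO.

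Among named classes outside endothelium Nrp1 was highest in regulatory T-like cells of WT eHCC, with 125 CPM (104.8 to 148), and in macrophage-like cells of WT and KO eHCC, with 103.7 CPM (100.5 to 107) and 102.3 CPM (91.02 to 114.5), whose intervals overlapped. Plasmacytoid dendritic-like cells, for which neuropilin-1 is a known marker in humans, had 86.16, 66.53, 67.39 and 60.09 CPM. Classical monocyte-like cells had 66.98, 64.28, 45.44 and 39.32 CPM. Regulatory T-like cells of KO eHCC had 62.64 CPM, lower than WT by -0.997 (-1.52 to -0.50), where 3.44% of genes were at least 2-fold lower. T-like cells had 33.41, 29.49, 17.35 and 30.06 CPM, so that KO eHCC stood below the other 3 libraries.

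Inside the T-like class Nrp1 differed between clusters. In T12, a cluster with Cd4 among its leading genes, it was at 172.1 CPM in 162 cells of KO premalignant, 151.8 CPM in 172 of WT premalignant and 198.5 CPM in 70 of WT eHCC. T12 held 139 of the 364 Nrp1 UMIs of the class in KO premalignant, 123 of 287 in WT premalignant and 79 of 854 in WT eHCC, so most Nrp1 UMIs of T-like cells lay in other clusters.

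Nrp2 in macrophage-like cells was at 25.22 and 45.16 CPM in KO and WT eHCC, lower in KO by -0.84 (-1.20 to -0.50), where 9.81% of genes were at least 2-fold lower, and the ratio was 0.11 after thinning. It varied between WT clusters, from 23.59 CPM in P2 and 26.97 CPM in P0 to 97.8 CPM (91.72 to 104.2) in P4, the cluster that also had the most Vegfa. Mature dendritic-like cells had 198.8 CPM in 22 cells of KO premalignant and 32.75 CPM in 98 cells of KO eHCC. The first were mostly cluster P19 (17 cells) and the second mostly P17 (80 cells, median 1269 UMIs). In mature dendritic cells Nrp2 is known to assist migration.

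Counts of members past 2-fold in the other classes are of members with at least 50 UMIs in both libraries together. Between the labels at the premalignant stage 0 of 6 members passed 2-fold in T-like cells, where 1.24% of genes were at least 2-fold higher and 0.81% lower. In classical monocyte-like cells 1 of 3, Vegfa, was higher and 0 lower, against 1.5% and 0.708% of genes. In NK-like cells 1 of 4, Vegfa, was higher and 3, all receptors or neuropilins, lower, against 2.23% and 1.42%. The LSEC markers of these NK-like cells were lower in KO too. In plasmacytoid dendritic-like cells 0 of 3 were higher and 1, Kdr, lower, against 1.76% and 0.736%. The Kdr ratio of -1.12 was -0.12 after thinning, and the LSEC markers moved with it at 269.8 and 440.5 CPM. In B-like cells 0 of 6 were higher and 1, Nrp2, lower, against 1.78% and 1.49%. At eHCC T-like cells had Vegfa higher and Nrp2 lower of 5 members, against 3.2% and 8.03% of genes. NK-like cells had Vegfa higher and Vegfc lower of 3, against 4.55% and 5.07%, and macrophage-like cells had Kdr and Vegfa higher of 6 and 0 lower, against 7.18% and 9.81%. Neutrophil-like cells had 0 higher and Flt1 lower of 2, where 33.5% of genes were lower, and the 1 member measured in plasmacytoid dendritic-like cells passed 2-fold in neither direction, against 2.44% and 1.15%.

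Between the stages the members at least 2-fold lower at eHCC in T-like and NK-like cells were receptors and neuropilins. In T-like cells 4 of 7 members, Kdr, Flt1, Flt4 and Nrp2, were at least 2-fold lower and 1, Vegfa, higher in KO as in WT, against 18.2% lower and 3.82% higher of all genes in KO and 5.69% and 4.26% in WT. After thinning the Vegfa ratio of T-like cells was 0.13 in WT. In B-like cells 5 of 5 were lower in KO and 4 of 6 in WT, and 0 of these were higher. Of all genes 18% and 7.53% were lower and 1.2% and 1.22% higher. Vegfa had too few UMIs for this count in B-like cells of KO, with 27 in premalignant and 21 in eHCC cells. Its log2 ratio there was 1.12, past 2-fold higher at eHCC, with an interval above 0. In hepatocyte-like cells of WT 2 of 3, Kdr and Nrp1, were lower, against 7.37%, with the 10 LSEC markers at 567.5 CPM in premalignant and 144.2 CPM in eHCC cells. In NK-like cells of WT 2 of 4 were lower, against 6.03% of genes, and in those of KO 1 of 4, against 17.7%. In classical monocyte-like cells 1 of 4, Flt1, was lower in KO, against 7.55% of genes, and 0 of 5 in WT, against 8.17%. In plasmacytoid dendritic-like cells 0 of 3 passed 2-fold in KO, where 1.48% of genes were higher and 7.87% lower, and 1 of 3, Kdr, was lower in WT, where 0.901% were higher and 4.04% lower. That Kdr ratio of -1.52 was -0.57 with equal weights and turned to 0.37 after thinning. The summed LSEC markers of NK-like cells were lower at eHCC too, at 10.52 CPM in KO and 32.54 CPM in WT. LSEC-like cells were too few at eHCC for a stage comparison.

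Over 40 class and library profiles of 18 classes, the receptors followed one another. Pearson's r of log2(CPM + 5) was 0.961 for Kdr with Flt4, 0.878 for Kdr with Flt1 and 0.898 for Flt1 with Flt4, whereas Vegfa had r between -0.113 and 0.119 with the 5 receptor and neuropilin genes. Profiles of one library share its depth and free RNA, and classes recur in several libraries, so these are descriptions. Among 12354 genes the nearest to Kdr were Eng (0.969), Adgrf5 (0.962) and Flt4, those nearest to Flt1 were Kank3 (0.962), Plekhg1 (0.956) and Prex2 (0.939), and those nearest to Flt4 were Clec14a (0.991), Arhgef15 (0.987) and Cldn5 (0.986). The nearest to Nrp2 were Kank3 (0.928), Flt1 (0.927) and Plxnd1 (0.926), and to Nrp1 Lrrc58 (0.882), Dpagt1 (0.858) and Bmpr2 (0.856). The ligands had less close neighbours: Cd63 (0.779), Por (0.699) and Phlda1 (0.693) for Vegfa, Pigp (0.823), Chchd6 (0.811) and Tmem218 (0.808) for Vegfb, and Gm26632 (0.791), Ttc7b (0.724) and Mapkap1 (0.719) for Vegfc.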

How the data were processed

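Polyadenylated RNA of dissociated liver cells was read in 4 libraries, per the labels with 10x Genomics 5' chemistry. The values used are UMI counts per gene and barcode as the authors deposited them, not normalised; the matrix headers name Cell Ranger software version 3.0.1. The submitters' processing notes also name bcl2fastq 2.20.0 and the builds GRCh38 and mm10. Variable T cell receptor segments, at the 5' end of their transcripts, held 1.9 to 2.71% of the UMIs of the constant ones, so the transcript end that was counted is not settled.

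Cells had at least 500 UMIs, 300 genes and at most 25% mitochondrial UMIs (9497, 13712, 8963 and 10282 passed, of 9672, 14167, 10686 and 11022 barcodes). Doublets were the highest scrublet scores in scanpy 1.11.5, 0.8% per 1000 cells, since its own threshold marked between 0.0335% and 7.634%. Clustering used 2000 variable genes, 40 components, 15 neighbours and Leiden resolution 1 (leidenalg 0.10.2), and clusters were named from marker lists by a rule set after seeing the data. UMIs were summed per class. Ratios needed 50 cells in both libraries and 20 UMIs together, and genes of all other comparisons 50 UMIs together. Fold calls are 2-fold. Genes named are all 8 members, the 3 most correlated genes of each, and up to 4 list genes with the largest ratios. A few cluster values (P0 to P6, T12), Pgf and the T-like Nrp1 cluster were chosen after their values were seen. The ratio script was tested on simulated counts. Members and lists were chosen with earlier results of these data known.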

Additional observations from a re-analysis of the deposited data

How the results depend on the processing

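No paired analysis was possible because each group had 1 library, numbered 1. The alternatives were another scaling, equal weight for each cell, thinning, doublets kept, a stricter mitochondrial limit, other cluster resolutions and leaving out the top cell of each library, and 3 more were chosen after seeing the data (cluster E3 added to LSEC-like cells, P5 alone and P6 alone). Of 488 alternative values of 62 ratios, 458 kept their direction, 406 stayed within the counting interval of the main value and 1 called ratio turned: Kdr between stages in plasmacytoid dendritic-like cells of WT, at -1.52, was 0.37 after thinning. Levels and shares moved more often: 26 of 64 alternative levels in LSEC-like cells and 26 of 60 shares of a gene's UMIs held by a class left the interval of the main value. Of 173 values of the 22 ratios past 2-fold, 172 kept their direction. The 62 ratios were a chosen set and did not include every ratio given above. Among those left out were the receptor and neuropilin ratios of NK-like cells and the Kdr and Pgf ratios of macrophage-like cells. The cause of the changes below was not tested.

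With cells thinned to 1000 UMIs the premalignant LSEC-like ratios were 0.45 for Vegfa, -0.80 for Vegfc, 0.39 for Kdr, 0.20 for Flt1 and 0.20 for Flt4, and at eHCC Vegfa was 2.46 in NK-like, 2.13 in classical monocyte-like and 2.15 in macrophage-like cells and Vegfc -1.08 in vascular endothelial-like cells. With median-ratio scaling Kdr was 0.25, Flt1 0.19 and Flt4 0.22 in LSEC-like cells. With equal weights Vegfc was -0.90, Kdr 0.32 and Flt4 0.23 there. With doublets kept Vegfc was -1.50 there, Vegfa 1.16 in classical monocyte-like and 2.05 in macrophage-like cells, and Vegfc -1.18 in vascular endothelial-like cells. At resolution 0.5 Vegfc was -1.47 in LSEC-like and Vegfa 1.40 in classical monocyte-like cells. At resolution 2 Kdr was 0.28 in LSEC-like, and Vegfa 1.06 in classical monocyte-like and 2.94 in macrophage-like cells. With at most 10% mitochondrial UMIs Kdr was 0.28. In P5 alone Vegfa was 2.10 and in P6 alone 4.83. Without the top cell of each library Vegfc of vascular endothelial-like cells was -2.71. The counts of hypoxia response genes stayed within 1.5 times with a filter of 20 UMIs, with no filter and with median-ratio scaling. Thinning, equal weights, doublets kept, the mitochondrial limit, other resolutions and leaving out the top cell were not run for these counts. Depth limits low members most: Vegfb and Vegfc outside endothelium rest on few UMIs per class.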
